A study of Mus musculus with 298 samples.

Results

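The second part of a nilotinib course was followed here in 7 mice. Each was sampled at week 8 and at week 10 after induction of a human BCR-ABL transgene. The comparison was the same step in 5 mice of the untreated CML cohort and 3 control mice. The members were all 14 libraries of the nilotinib (TKI) cohort at those weeks, out of 298 libraries from 20 mice in the series, with 10 libraries of the untreated CML cohort and 6 of the control cohort for comparison. All mice were C57BL/6, were heterozygous for the tTA transactivator and for BCR-ABL (tTA+/-, BCR-ABL+/-; the SCLtTA/BCR-ABL line, in which the Scl element drives the transactivator) and were 6 to 8 weeks old at the start. Control mice (TET_ON_C) stayed on tetracycline water at 0.5 g per L, which keeps the transgene off. Untreated CML mice (TET_OFF_B) had tetracycline withdrawn, and TKI mice (TET_OFF_NIL_ON_D) had it withdrawn and received 50 mg per kg nilotinib by daily gavage for 4 weeks from week 6. Week 8 therefore lies in the middle of the course and week 10 at its end. A further CML mouse, whose libraries ended before week 8, was not used. In 1 of the 5 CML mice used, mouse 487, the BCR-ABL1 fusion row was 0 at both weeks. Mouse 487 was kept in all CML values except where its omission is stated. By the batch labels, CML mice 480 and 541 and control mice 489 and 490 were in 2021_E, which held no TKI mouse. All other mice used were in 2022_A or 2022_B, so cohort and batch were partly confounded. RNA came from whole blood although the labels name PBMC as the tissue, and haemoglobin transcripts made up 12.8% to 45.1% of all transcripts in the week 10 TKI libraries, so red-cell RNA was present.

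BCR-ABL is a fusion tyrosine kinase that signals through STAT5, RAS-MAPK and PI3K and drives the outgrowth of granulocytes, basophils and often platelets in chronic myeloid leukaemia. Nilotinib binds the ABL kinase domain and stops that signal without removing the transcript. In whole blood, fewer cells of a type and less RNA per cell cannot be told apart.

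Values were length-normalised transcript abundances (TPM), and each gene's change was the log2(TPM + 1) value at week 10 minus that at week 8 in the same mouse. A gene passed when its Benjamini-Hochberg adjusted p over all 10186 tested genes was below 0.05 in limma. As deposited, 7821 genes (76.8%) passed in the TKI cohort, of which 7804 (76.6%) rose and 17 (0.167%) fell, and the median change over all genes was 0.49. The per-mouse median change was 0.94, 0.39, 0.85, 0.24, 0.62 and 0.60 in mice 502, 507, 508, 511, 512 and 513, and -0.21 in mouse 514, the one TKI mouse below 0. The control mice moved in the same direction without the drug, by 0.83, 0.48 and 0.09, while the CML mice lay between -0.17 and 0.56. Along with this shift the haemoglobin share of transcripts in the TKI libraries went from a median of 37.0% at week 8 to 28.4% at week 10, and the number of genes at 1 TPM or more from a median of 8960 to 10312; their part in the shift was not tested. With haemoglobin, erythroid and 7S RNA genes left out of the total, the all-gene median change was 0.21. The gene and list changes from week 8 to week 10 were therefore also computed after dividing each library by a median-ratio size factor, called rescaled. Rescaling brought the median change to -0.01, and 821 genes (8.06%) then passed, of which 268 (2.63%) rose and 553 (5.43%) fell. Of the 821 rescaled calls, 290 had also passed as deposited, 279 with the same sign and 11 with the opposite sign. In the CML and the control cohorts no gene passed on either scale in limma (0%); at an unadjusted p below 0.05 there were 325 and 3448 genes as deposited and 1191 and 517 rescaled.

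**Figure D1:**
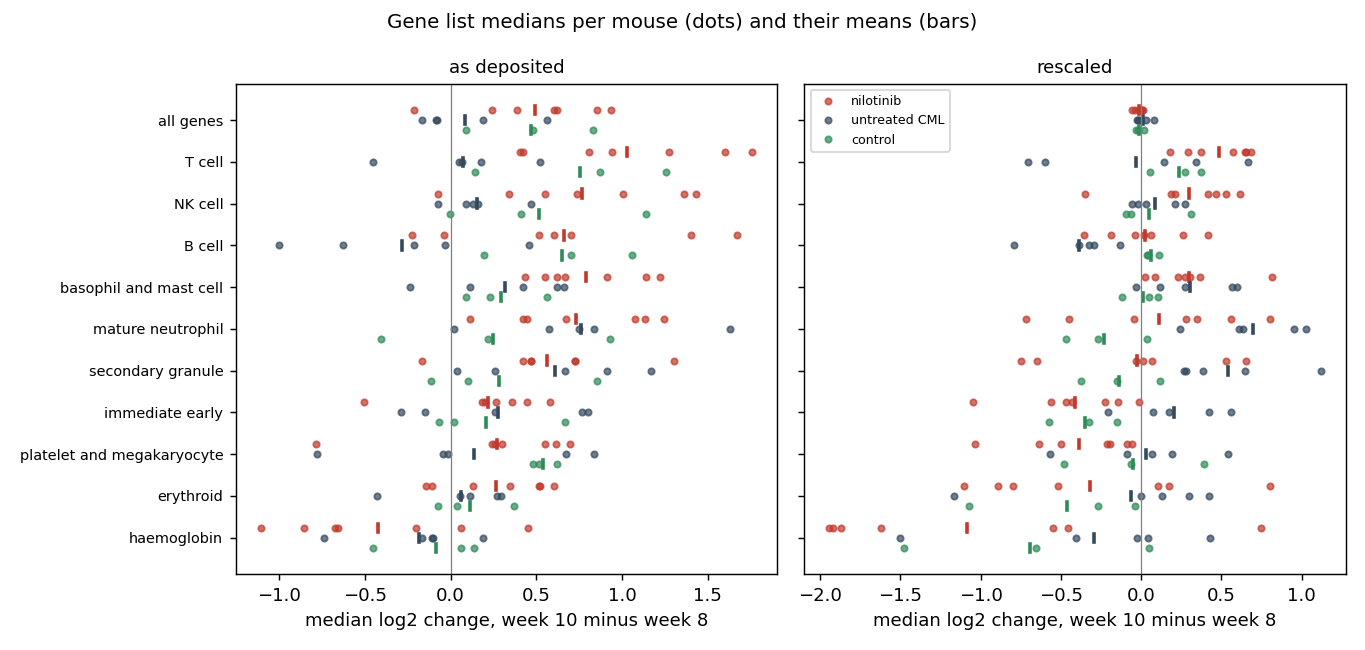
Median log2 change from week 8 to week 10 of all genes and of 10 gene lists, as deposited (left) and rescaled (right). Each dot is 1 mouse and each bar the mean over the mice of a cohort. The all-gene row shows the shift of the TKI and control mice as deposited, which rescaling removes; after it the T cell dots of all 7 TKI mice stay above 0.

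The BCR-ABL transcript was higher at week 10 than at week 8, while the mice were on the drug. In the row of the human fusion (HSA_BCR_ABL1_gene) the TKI mice 502, 507, 508, 511, 512, 513 and 514 had 3.31, 3.52, 4.45, 3.84, 1.96, 2.38 and 4.96 TPM at week 8. At week 10 the same mice had 10.56, 21.0, 20.2, 8.79, 9.82, 6.47 and 4.29 TPM. Mouse 514, whose last library was that of week 10, was the one mouse in which the fusion row of HSA_BCR_ABL1_gene did not increase, and without it the weeks did not overlap. The mean change was 1.36 ± 0.81 (SD, n = 7), with an adjusted p of 0.000672 in limma and an exact sign-flip p of 0.0312 (two-sided; 6 of 7 mice; the smallest p that 7 mice allow is 0.0156). After rescaling HSA_BCR_ABL1_gene rose by 0.81 ± 0.60 (SD, n = 7) in 7 of 7 mice, with an adjusted p of 0.0105 in limma and an exact sign-flip p of 0.0156. The rescaled call in limma was lost with a batch term (0.88) and with the prior variance following the mean change (0.81), the setting of the first fit described with the processing. The rows of the human BCR and ABL1 sequences rose too: HSA_BCR_gene rose by 1.28 and HSA_ABL1_gene by 1.495 in 7 of 7 mice (limma adjusted p = 7.28e-05 and 6.19e-05), or by 0.80 and 0.93 rescaled. The 3 human rows share sequence and are not independent of each other. The mouse genes that the fusion partners correspond to moved less: Bcr changed by 0.52 (limma adjusted p = 0.0151) and by -0.10 rescaled (0.633), and Abl1 by 0.70 (0.00509) and by 0.18 rescaled (0.0918).

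In the untreated CML mice the fusion row HSA_BCR_ABL1_gene stood at 9.63, 10.8, 0, 3.02 and 1.92 TPM at week 8 and at 12.4, 13.4, 0, 8.83 and 2.14 TPM at week 10 (mice 480, 484, 487, 541 and 542), a change of 0.40 ± 0.51 (SD, n = 5). The control mice had 0 at both weeks. The TKI change exceeded the CML change by 0.96 in the fusion row, with an exact permutation p of 0.0505 (two-sided, 792 arrangements; 0.0551 after adjustment over the 12 tests on this scale). It exceeded it by 0.90 in the BCR row and by 1.06 in the ABL1 row (exact permutation p = 0.0114 for each, adjusted 0.0333), and after rescaling by 0.49, 0.48 and 0.58 (exact permutation p = 0.124, 0.0556 and 0.0404; adjusted 0.136, 0.0833 and 0.0808), so that the difference from untreated mice did not pass on that scale. Without CML mouse 487 the difference in the fusion row was 0.86 as deposited and 0.42 rescaled (exact permutation p = 0.106 and 0.239). Against the control mice the difference was 1.36 (exact permutation p = 0.0417, adjusted 0.05). Tetracycline kept the transgene off in those mice, so their fusion change of 0 was set by the design. That comparison therefore only restates the rise in the TKI mice.

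As deposited, most of this rise was present at week 9. The mean fusion change of HSA_BCR_ABL1_gene from week 8 to week 9 was then 1.02 ± 0.89 (SD, n = 7). Rescaled, the fusion row changed by 0.43 from week 8 to week 9 and by 0.39 from week 9 to week 10. Neither rescaled change passed in limma. The deposited mean level was already 1.45 higher at week 6 and 1.42 higher at week 7 than at week 8. Week 8 thus had the lowest mean of weeks 6 to 10 in the TKI mice, and a rise from the lowest week is in part built into the choice of that week. With week 9 as the start, HSA_BCR_ABL1_gene changed by 0.34 as deposited and did not pass in limma (adjusted p = 1.00). Within the batches named in the labels, the median change of HSA_BCR_ABL1_gene as deposited was 1.88 in the 4 TKI mice of 2022_A and 0.66 in the 3 of 2022_B, beside 0.28 in 1 CML mouse and 0.05 in 2 CML mice of the same batches. After rescaling the values were 1.07 and 0.46 in the TKI mice and 0.47 and -0.05 in the CML mice. Of the 2 CML mice of 2022_B, mouse 487 had no signal in the fusion row at either week. The CML value of that batch therefore rests on the change of mouse 542 alone.

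**Figure D2:**
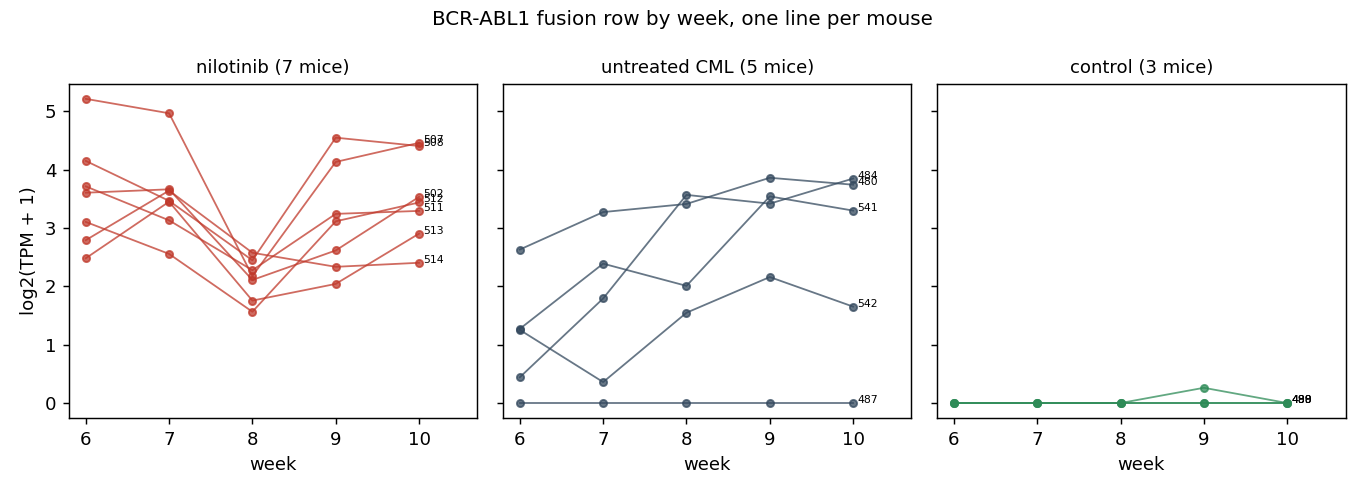
BCR-ABL1 fusion row in log2(TPM + 1) against week 6 to 10, 1 line per mouse, in 7 nilotinib, 5 untreated CML and 3 control mice. The nilotinib lines dip to their lowest mean at week 8 and 6 of 7 are higher at week 10; the control lines are at 0, except 1 mouse slightly above 0 at week 9.

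T cell genes rose in the TKI mice on each scale. Of 22 tested T cell genes, 21 rose as deposited beside the 76.6% of all genes, and 10 rose after rescaling beside 2.63%; the list median was 1.03 as deposited and 0.49 rescaled, against 0.49 and -0.01 over all genes. The rescaled rises included Bcl11b, Cd4, Cd5, Cd6, Cd8a, Il7r, Lef1, Trac and Zap70, while Lat, an adaptor of the T cell receptor, fell (-0.34, limma adjusted p = 0.0459). The summed level of the list went from a median of 168 TPM (range 127 to 224) to 360 TPM (range 207 to 466).

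Il7r, the receptor for the T cell survival factor IL-7, stood at 2.10, 6.22, 4.24, 3.47, 4.34, 5.06 and 4.71 TPM at week 8 and at 14.9, 9.50, 17.4, 5.61, 14.0, 16.5 and 8.11 TPM at week 10 in mice 502 to 514. Every TKI mouse was higher at week 10, and the weeks overlap only through mouse 511 at week 10 and mouse 507 at week 8. Il7r rose by 1.28 as deposited and by 0.71 ± 0.40 (SD, n = 7) rescaled (limma adjusted p = 0.013). Cd4, the coreceptor of helper T cells, ranged from 0.94 to 2.59 TPM at week 8 and from 1.83 to 5.74 at week 10 and rose by 0.62 ± 0.27 (SD, n = 7) rescaled (limma adjusted p = 0.00954). Cd8a, the coreceptor of cytotoxic T cells, rose by 0.59 and Bcl11b, a T lineage transcription factor, by 0.60 (rescaled limma adjusted p = 0.0228 and 0.00866), each in 7 of 7 mice. Trac and Cd3e, which encode parts of the T cell receptor complex, rose by 1.25 and 1.21 as deposited; rescaled, Trac rose by 0.64 (limma adjusted p = 0.0439) and Cd3e had 0.61 (0.0942).

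Other lymphocyte genes picked by the naming rule also rose. S1pr1, the receptor that lets lymphocytes leave lymphoid organs, rose by 0.69 and Cxcr5, which leads B cells and follicular helper T cells into follicles, by 0.69 after rescaling (limma adjusted p = 0.0117 and 0.00462; 7 of 7 mice each). Clec2d, a ligand of an NK cell receptor, had the largest rise among the genes picked by the naming rule. It went from between 4.26 and 6.89 TPM at week 8 to between 8.37 and 32.2 TPM at week 10, with no overlap of the weeks, and rose by 1.69 as deposited and 1.09 ± 0.30 (SD, n = 7) rescaled (limma adjusted p = 0.00713). In the NK cell list 14 of 15 genes rose as deposited and 5 after rescaling (median 0.28), beside 76.6% and 2.63% of all genes, among them the cytotoxic pore protein Prf1 (0.55, limma adjusted p = 0.0115), the transcription factor Eomes (0.45, 0.0114) and the IL-2 receptor chain Il2rb (0.59, 0.02). B cell genes did not share this: 20 of 20 rose as deposited and 0 of 20 after rescaling, beside the same shares of all genes, with a rescaled median of 0.03; Fcer2a, an IgE receptor found on mature B cells, had a rescaled change of 0.17 (limma adjusted p = 0.394).

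The control mice shared part of this rise. The T cell median change was 0.76 as deposited and 0.24 rescaled in the control mice, and 0.07 and -0.02 in the CML mice. The rescaled median was 0.34, 0.67 and 0.14 in CML mice 480, 484 and 487 and -0.60 and -0.71 in mice 541 and 542, so 3 of 5 CML mice were above 0. For Cd4 the TKI change exceeded the CML change by 0.95 rescaled, which did not pass (limma adjusted p = 0.101; unadjusted p = 0.000111), and the control change by 0.34 (unadjusted p = 0.143). Within batch 2022_B the rescaled T cell median was 0.49 in 3 TKI mice and -0.27 in 2 CML mice; within 2022_A it was 0.50 in 4 TKI mice, 0.67 in 1 CML mouse and 0.38 in 1 control mouse.

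**Figure D3:**
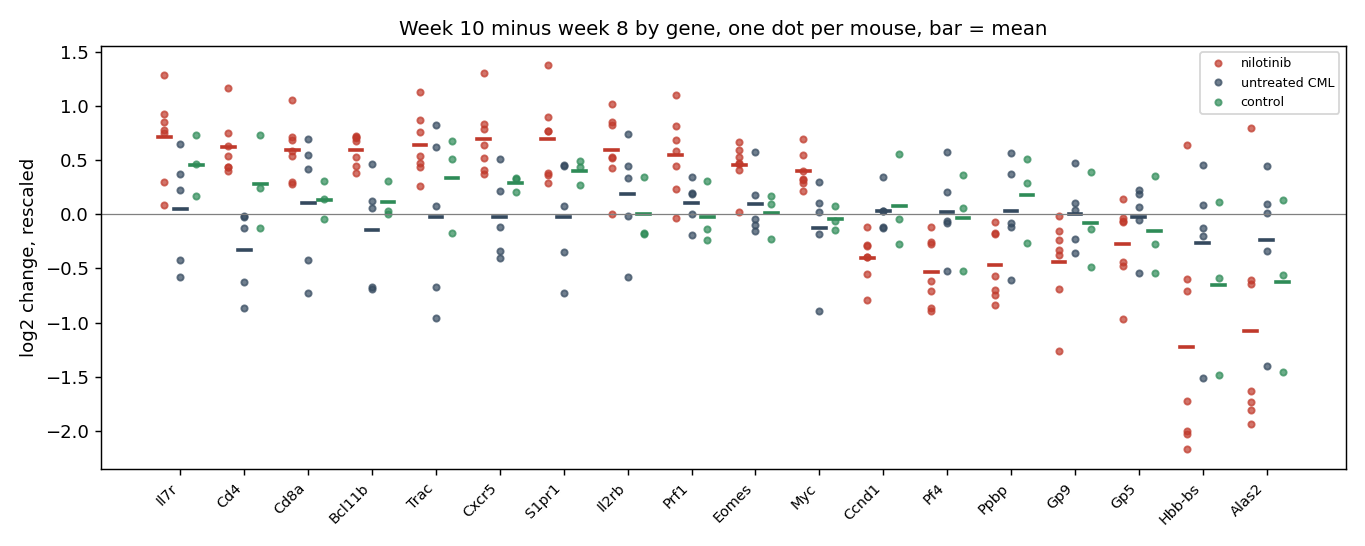
Rescaled log2 change from week 8 to week 10 for 18 genes, 1 dot per mouse, with the mean of each cohort as a bar. The 7 nilotinib dots lie above 0 for Il7r, Cd4, Cd8a, Bcl11b, Trac, Cxcr5, S1pr1 and Myc and below 0 for Pf4 and Ccnd1.

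Several immediate early genes fell, most of them only after rescaling. These genes are switched on rapidly by growth factor, stress and MAPK signals. As deposited, 3 of 13 rose and 2 fell beside 76.6% and 0.167% of all genes, with a list median of 0.22 and a positive median in 6 of 7 TKI mice. After rescaling 5 fell beside 5.43% of all genes (Atf3, Egr1, Fos, Nr4a1 and Zfp36), 0 rose, and the list median was -0.37. The 3 control mice also had rescaled medians below 0 (-0.32, -0.57 and -0.15). Egr1, a zinc finger factor downstream of ERK, stood at 8.97, 4.27, 4.19, 7.84, 8.96, 13.7 and 4.12 TPM at week 8 and at 3.30, 1.39, 2.01, 1.49, 3.21, 4.57 and 1.33 TPM at week 10. It fell in 7 of 7 mice on each scale, by 1.25 as deposited and by 1.80 rescaled (limma adjusted p = 0.00237 and 0.00388). Atf3, a stress-induced factor, fell in 7 of 7 mice by 0.64 as deposited and by 1.13 rescaled (limma adjusted p = 0.00509 and 0.00306). Fos and Zfp36 passed only after rescaling: as deposited their changes were 0.00 and 0.30, rescaled -0.65 and -0.35 (limma adjusted p = 0.0277 and 0.0392). Cxcl2, a neutrophil-attracting chemokine of the same inducible kind, went from between 2.06 and 9.09 TPM to between 0.51 and 4.41 TPM and fell by 0.88 as deposited and 1.41 rescaled (limma adjusted p = 0.00237 and 0.00306; 7 of 7 mice).

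As deposited, Egr1 and Atf3 at week 9 were still near their week 8 levels. Egr1 was at a median of 6.47 TPM at week 9, beside 7.84 at week 8 and 2.01 at week 10. Atf3 was at 3.34, beside 3.39 and 1.57. The TKI libraries had already shifted by week 9, with a median of 10491 genes at 1 TPM or more, beside 8960 at week 8. Rescaled week 9 levels of Egr1 and Atf3 are not given here, so the start of their rescaled fall is not shown. The comparison cohorts varied: Egr1 was lower at week 10 in 3 of 5 CML mice as deposited, and 3 of 3 control mice were lower after rescaling. The rescaled TKI change of Egr1 lay 1.82 below that of the CML mice (limma adjusted p = 0.101; unadjusted 0.000469) and 0.94 below that of the control mice (unadjusted 0.0705). For Cxcl2 it lay 1.59 below the CML mice (limma adjusted p = 0.101; unadjusted 6.74e-05).

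Mthfd2, a mitochondrial enzyme of folate metabolism that dividing cells rely on, fell in 6 of 7 TKI mice. Its levels in the TKI mice were 14.0, 18.4, 17.9, 14.0, 9.39, 26.3 and 12.1 TPM at week 8 and 9.14, 6.03, 5.83, 8.09, 6.65, 10.0 and 14.3 TPM at week 10. Mouse 514 rose and the other 6 fell, and the mean Mthfd2 change was -0.82 ± 0.63 (SD, n = 7) as deposited and -1.42 ± 0.99 rescaled (limma adjusted p = 0.00327 and 0.00713). In the CML mice Mthfd2 ranged from 5.38 to 17.5 TPM at week 8 and from 6.75 to 21.5 at week 10, and in the control mice from 2.90 to 4.32 and from 4.05 to 4.45. At week 8 all 7 TKI mice were thus above all 3 control mice, and at week 10 they still were. The TKI change was 1.56 below the CML change after rescaling, which did not pass (limma adjusted p = 0.101; unadjusted 0.00125). Mthfd2 was already at a median of 7.34 TPM at week 9.

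**Figure D4:**
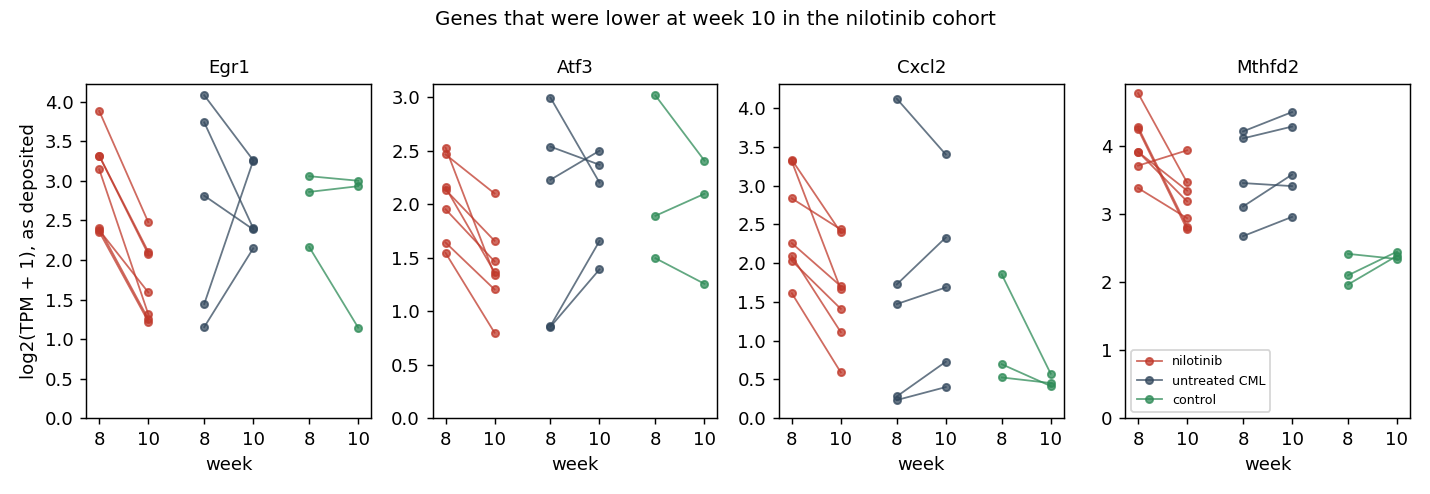
Egr1, Atf3, Cxcl2 and Mthfd2 in log2(TPM + 1) as deposited at weeks 8 and 10, 1 line per mouse, by cohort. All 7 nilotinib lines fall for the first 3 genes and 6 of 7 for Mthfd2, while lines of the untreated CML mice go in either direction for Egr1, Atf3 and Cxcl2.

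Among the targets of the kinase the picture was mixed. Of 12 STAT5 target genes, 10 rose as deposited beside 76.6% of all genes. Rescaled, Myc and Bcl6 rose, beside 2.63% of all genes, and Ccnd1 fell, beside 5.43%. Myc, a driver of cell growth, went from between 2.79 and 6.61 TPM to between 6.97 and 13.6 TPM and rose by 0.40 ± 0.17 (SD, n = 7) rescaled (limma adjusted p = 0.0315; 7 of 7 mice). Bcl6, a repressor that STAT5 itself restrains, rose by 0.28 (limma adjusted p = 0.0169), and Ccnd1, a G1 cyclin, fell by 0.40 (0.0203) after a deposited change of 0.06. Pim1, a STAT5-induced kinase, changed by 0.54 as deposited and -0.10 rescaled (limma adjusted p = 0.00965 and 0.536). Of 22 genes of BCR-ABL signalling, 22 rose as deposited and 1 rescaled, a rescaled share near the 2.63% of all genes. The 1 gene was Pik3cd, the leukocyte PI3K catalytic subunit (0.31, limma adjusted p = 0.0135). Of 6 MAPK feedback genes 4 rose as deposited and 0 rescaled, and of 5 genes of drug transport and nilotinib targets 3 and 0, neither count above the 76.6% of all genes that rose.

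No gene of the neutrophil lists passed after rescaling. In the mature neutrophil list 18 of 20 genes rose as deposited and 0 rescaled, with medians of 0.78 and 0.21; in the secondary granule list 11 of 16 and 0, with medians of 0.56 and -0.02, beside 76.6% and 2.63% of all genes. The untreated CML mice had rescaled medians of 0.67 and 0.56 for the same lists. The TKI values differed in sign between batches. Within 2022_A the rescaled medians were -0.18 and -0.32 in 4 TKI mice and 0.96 and 1.12 in 1 CML mouse. Within 2022_B they were 0.65 and 0.38 in 3 TKI mice and 0.66 and 0.32 in 2 CML mice. Ngp and Camp, proteins of the secondary granule of maturing neutrophils, had rescaled changes of -0.11 and -0.28 in the TKI mice (limma adjusted p = 0.815 and 0.478), lower than those of the CML mice by 0.96 and 1.15 without passing (unadjusted p = 0.0144 and 0.00477). Of the other members named by rule, Ltf, Lcn2, S100a9 and Mmp8 had rescaled changes of -0.24, 0.33, 0.05 and 0.35, none of which passed. Of the basophil and mast cell genes 9 of 9 rose as deposited and 2 rescaled, beside the same shares, the granule protease Prss34 (0.72, limma adjusted p = 0.0489) and the receptor Cd200r3 (0.49, 0.0315). Mcpt8, the basophil protease, rose by 1.30 as deposited (limma adjusted p = 0.0021) and had 0.73 rescaled (0.078; 5 of 7 mice). Over the 7 TKI mice the change of the fusion row had a Pearson r of -0.08 with that of Mcpt8 and of 0.21 with that of Ngp as deposited (exact permutation p = 0.852 and 0.616; adjusted over both 0.852 for each; Spearman rho -0.11 and 0.32, exact p = 0.84 and 0.498). Without the 2 mice farthest from the median fusion change r was 0.36 and -0.36. Rescaled, r was -0.71 with Mcpt8 and -0.16 with Ngp (exact permutation p = 0.0722 and 0.719; adjusted 0.144 and 0.719; Spearman rho -0.64 and -0.39, exact p = 0.139 and 0.396). Without the same 2 mice the rescaled r was -0.50 and -0.17. No relation passed on either scale.

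Haemoglobin transcripts fell. Of 4 tested haemoglobin genes 3 fell as deposited, beside 17 of all tested genes (0.167%). Hbb-bs, Hbb-bt and Hba-a2 changed by -0.56, -0.53 and -0.34 (limma adjusted p = 0.00531, 0.00888 and 0.0376). The rescaled median change of the haemoglobin list ran from -1.94 in mouse 502 to 0.75 in mouse 514. Hbb-bs, the adult beta chain, ranged from 135204 to 239080 TPM at week 8 and from 58281 to 205441 TPM at week 10, and mouse 514 was again the one that rose. These near-identical globin copies can share reads, so their split is uncertain. Alas2, the first enzyme of haem synthesis in red cells, fell by 0.42 as deposited and by 1.08 rescaled, and Bpgm, which makes the red-cell regulator of oxygen release, by 1.05 rescaled (limma adjusted p = 0.0282, 0.0399 and 0.0489). Hbq1a, a minor globin, and Ube2l6, a conjugating enzyme of ISG15, fell with them (rescaled -0.90 and -1.08; limma adjusted p = 0.0439 and 0.0369). As deposited, Hba-a2, Alas2 and Ube2l6 each no longer passed when 1 of the TKI mice 502, 508, 512 or 513 was left out (limma adjusted p up to 0.159, 0.108 and 0.116). In the erythroid list of 22 genes, 11 rose and 1 fell as deposited (median 0.39), beside 76.6% and 0.167% of all genes. After rescaling 0 rose and 2 fell (median -0.18), beside 2.63% and 5.43% of all genes. The control mice, without the drug, had rescaled medians of -0.68 for haemoglobin and -0.42 for erythroid genes, and no difference between the cohorts passed. Fam220a, Ccndbp1 and Ghitm were also named by rule, with rescaled falls of 1.23, 0.96 and 0.90 (limma adjusted p = 0.0279, 0.0359 and 0.0369).

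Platelet and megakaryocyte genes lagged behind other genes in the TKI mice. None of 20 passed as deposited, beside 76.8% of all genes, and 2 fell after rescaling, Pf4 and Nrgn, beside 5.43% of all genes. All 20 lay below the all-gene median on each scale, and the list median was 0.25 as deposited and -0.41 rescaled. Pf4, the chemokine of platelet alpha granules, stood at 2021, 2630, 2340, 2457, 2939, 1800 and 1831 TPM at week 8 and 2714, 2459, 2885, 2612, 4275, 2805 and 914.9 TPM at week 10. The level was higher in 5 of 7 mice as deposited, a change of 0.13 that did not pass (limma adjusted p = 0.517), and fell by 0.53 ± 0.31 (SD, n = 7) in 7 of 7 mice after rescaling (0.0335). Ppbp, its neighbour on chromosome 5 and another alpha granule chemokine, had a rescaled change of -0.47 (limma adjusted p = 0.0634). The von Willebrand receptor subunits Gp9, Gp1bb and Gp5 had -0.44, -0.43 and -0.27 (limma adjusted p = 0.0751, 0.0834 and 0.221). The summed level of the platelet list in the TKI mice ranged from 11373 to 16830 TPM at week 8 and from 6686 to 24799 TPM at week 10, at week 8 above all 3 control mice (1931 to 3322 TPM). In the untreated CML mice it ranged from 4401 to 13645 TPM at week 8 and from 3563 to 13551 TPM at week 10. The rescaled list median change was 0.20, -0.57, 0.07, -0.09 and 0.54 in CML mice 480, 484, 487, 541 and 542. In control mice 488, 489 and 490 it was -0.48, -0.07 and 0.39, so some mice without the drug had a negative value too. The difference between the cohorts in this list was not tested.

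The promoters of Gp9 and Gp5 are shown as examples of the platelet list, all of whose members lay below the all-gene median; GATA factors act in megakaryocytes, and neither gene passed. The 250 bases before the RefSeq start are given 5' to 3' along the gene (RefSeq, GRCm38.p6), with GATAA, or TTATC where it lies on the other strand, in capitals.
Gp9 (chr6:87777820-87778069, plus strand): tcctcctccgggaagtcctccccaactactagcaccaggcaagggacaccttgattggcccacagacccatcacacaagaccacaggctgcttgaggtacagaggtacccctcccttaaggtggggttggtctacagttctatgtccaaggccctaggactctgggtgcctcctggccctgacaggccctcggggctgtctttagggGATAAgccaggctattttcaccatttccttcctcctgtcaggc
Gp5 (chr16:30310782-30311031, minus strand): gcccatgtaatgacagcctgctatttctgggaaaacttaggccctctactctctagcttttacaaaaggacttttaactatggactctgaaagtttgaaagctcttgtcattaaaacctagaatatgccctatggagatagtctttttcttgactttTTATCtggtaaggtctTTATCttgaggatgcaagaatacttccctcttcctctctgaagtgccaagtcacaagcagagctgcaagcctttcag
Gp9 has 1 match and Gp5 has 2. A match to these letters on either strand was found before the start in 6 of the 15 platelet list genes that the table holds, or 40.0%, and in 23.02% of all 27025 promoters of that length. A match is a description of the sequence and not a binding site.

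The further lists described here gave few rescaled calls. The shares to read them against are 76.6% of all genes rising as deposited, and 2.63% rising and 5.43% falling rescaled. Counts for the other lists are not given here. In the interferon response list 11 of 20 genes rose as deposited and Ifit2 fell rescaled, in MHC class I 15 of 16 rose and B2m fell rescaled, and in MHC class II 10 of 11 rose and 0 passed rescaled. Of 14 cell cycle genes 8 rose as deposited and Bub1b fell rescaled, and of 14 genes of the BCL2 family 12 rose and Bcl2 rose rescaled. The 13 mitochondrially encoded genes gave 0 calls on either scale, with a median of 0.28 as deposited and -0.38 rescaled. Single mice decided this value: the rescaled median ran from -2.41 in mouse 507 to 1.30 in mouse 502, and the deposited median was -0.19 without mouse 502 and 0.62 without mouse 507.

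No gene passed in the difference between the TKI and the CML change, or between the TKI and the control change, on either scale (limma, 0%). At an unadjusted p below 0.05 the TKI minus CML difference held 2737 genes as deposited and 2003 rescaled, and the TKI minus control difference 111 and 938. Among the genes that the naming rule picked for the difference from the CML mice were Chd3, a chromatin remodeller (0.78 rescaled, unadjusted p = 0.000347), Cxcr5 (0.72, 0.000883), and in the other direction Mthfd2. For Ttc3, a ubiquitin ligase picked for the difference from the control mice, the change was 0.99 lower than theirs after rescaling (limma adjusted p = 0.146), after a fall of 0.69 in 7 of 7 TKI mice (adjusted p = 0.00306). The absence of passing genes does not show that the cohorts moved alike. Without mouse 514, 3600 genes passed in TKI minus CML as deposited and 1 rescaled. The rescaled TKI calls rested partly on single mice: 186 genes passed without mouse 508 and 296 without mouse 502, and with a batch term 0 passed.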

How the data were processed

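Weekly blood libraries of mice with an inducible BCR-ABL transgene were analysed from the authors' deposited table of TPM values (14605 genes, 298 libraries). Per the submitters' processing notes STAR, Salmon and GRCm39 were used; versions are not given in the sources used here. Per the labels' protocols, RNA was ribosome-depleted and reverse stranded, with an RNA integrity number above 4. TPM keeps no depth, so depth is unknown. Gene symbols came from GENCODE M39 (14537 matched).

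Changes per mouse on log2(TPM + 1) were fitted with limma 3.58.1 in R 4.3.3 (trend on the mean log2 level, 3 cohorts sharing 1 spread) over 10186 genes with a mean of at least 1 TPM. A first fit let the prior variance follow the mean change, which is limma's default for a table of changes and gave larger errors to the genes that changed most; it was replaced after its results had been seen, and its counts are given in the closing section. The mouse is the block: libraries of a mouse come from 1 animal, and week 8 and week 10 deviations correlated at 0.45 on average over 15 mice (0.09 to 0.80). Rescaling used median-ratio size factors over 13065 genes above 0 in every library. Human transgene rows were tested with exact sign-flip and permutation tests. On simulated data with known changes, the fit was checked. The members and lists were chosen with earlier results of these data known. Genes were named as the 10 largest rises and falls that passed with at least 5 TPM and the same sign in 6 of 7 mice, filled from rescaled calls or by p, as 3 per list by smallest p, and a fixed set; Fos, Zfp36, Nr4a1, Ppbp, Gp9, Ccnd1, Nrgn, Lat, Cd200r3, Pf4 and the other genes listed only by symbol were chosen after their values were seen. Cish was under the filter and Socs2 was not analysed here. Alternatives for pseudocount, filter, scaling, block, batch, weeks and single mice were computed. One gene of the T cell list is not reported here by name.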

Additional observations from a re-analysis of the deposited data

Results flagged for a closer look

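Mouse 514, whose last library was that of week 10, lay far below the other TKI mice in the deposited change of Bcr (-0.57, next 0.45), Gp5 (-0.73, next 0.31), Pim1 (-0.16, next 0.46) and Zfp36 (-0.42, next 0.25). Its all-gene median change was -0.21. Mouse 513 lay far above the other TKI mice for Ngp (2.11, next 0.65) and Camp (1.81, next 0.42). In the CML cohort mouse 541 stood apart for HSA_BCR_ABL1_gene (1.29, next 0.33), Pim1 (0.85, next -0.12) and the rescaled erythroid list median (-1.17, next -0.0037), and mouse 542 for Clec2d (-0.61, next 0.38). In all, 10 of 132 groups of 5 or 7 mice held such a mouse, and chance gives about 1 in 20.

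The deposited change differed between the TKI and the CML cohort for HSA_BCR_gene by 0.90 and for HSA_ABL1_gene by 1.06 (exact permutation p = 0.0114 each, adjusted 0.0333; 5 of 7 TKI mice above all 5 CML mice for each). After rescaling the differences were 0.48 and 0.58 and did not pass (adjusted exact p = 0.0833 and 0.0808).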

How the results depend on the processing

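As deposited, 7821 genes passed in TKI week 10 minus week 8. The count was 2729 (2618 higher, 111 lower) without haemoglobin, erythroid and 7S RNA genes, 3847 with a mean of at least 5 TPM, 2799 with no replicate block, 3892 with a batch term, 0 with week 9 in place of week 8, 7920 with the trend on the mean change, and 4901 to 9191 when single mice were left out (5067 without 502, 4901 without 508). For TKI week 10 minus week 8, rescaled, it was 821, and the following were chosen after seeing the data: 0 with a batch term, 0 with week 9 in place of week 8, 454 with week 9 in place of week 10, 6 with no replicate block, 665 with the trend on the mean change, and 186 to 958 without single mice (296 without 502, 498 without 507, 186 without 508, 528 without 512). For the CML cohort, 23 genes passed with robust eBayes and 0 to 2 without single mice; rescaled, 115 with week 9 in place of week 10 and 0 to 1 without single mice (1 without TKI 502 or 511). For the control cohort, 1 passed without the red-cell and 7S genes, 2 without a filter, 78 with robust eBayes and 0 to 9 without single mice. For TKI minus CML, 44 passed with robust eBayes, 1 with week 9 in place of week 10 and 0 to 3600 without single mice (3600 without TKI 514); rescaled, 117 with week 9 in place of week 10 and 0 to 1 without single mice. For TKI minus control, 3 passed with robust eBayes; rescaled, 4 with week 9 in place of week 10 and 0 to 2 without single mice (2 without TKI 512). The BCR-ABL transgene changed by 0.34 with week 9 in place of week 8 (1.21 to 1.62 without single mice); its TKI minus CML difference was 0.81 to 1.22 without single mice and passed at 1.22 without TKI 514, and its TKI minus control difference of 1.36 passed with robust eBayes. Rescaled, it no longer passed at 0.88 with a batch term, 0.39 with week 9 in place of week 8, 0.43 with week 9 in place of week 10, 0.81 with no replicate block and 0.81 with the trend on the mean change. With week 9 in place of week 8 the sign turned for Bcr (-0.16), Abl1 (-0.0039), Mthfd2 (0.050), Hbb-bs (0.0013), Hbb-bt (0.010), Hba-a2 (0.021), Alas2 (0.031), Ube2l6 (0.10), Lcn2 (-0.074), S100a9 (-0.19), Mmp8 (-0.27), Myc (-0.079), Bcl6 (-0.037), Pim1 (-0.12), Pik3cd (-0.082) and, in Chd3, TKI week 10 minus week 8, to -0.0045, and with week 9 in place of week 10 for Atf3 (0.097) and Egr1 (0.072). Rescaling turned it for Bcr (-0.10), Pf4 (-0.53), Ngp (-0.11), Ccnd1 (-0.40), Pim1 (-0.10), Fos (-0.65; -0.42 without the red-cell and 7S genes) and Zfp36 (-0.35). The cause of these moves was not tested. Depth is unknown.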
